A study of Mus musculus with 6 samples.

Results

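A set of 10 genes of basophils, mast cells and eosinophils was followed in a mouse myeloid progenitor line that had received IRF8 or KLF4, both transcription factors of the monocyte lineage. The genes are Mcpt8, Cpa3, Tpsb2, Hdc, Epx, Prg2, Ear2, Il1rl1, Fcer1a and Ms4a2. They were chosen by name, through the RefSeq accession that the array design gives each probe, and all 10 were found, on 13 probes, out of 20263 genes matched on the array and 55681 probes in all. Il1rl1 has 3 probes, Tpsb2 has 2 and the other genes have 1 each. For a gene with several probes the brightest over all arrays was used and the others are described beside it.

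Every sample came from Tot2, a single line of myeloid progenitors made from an Irf8 knockout mouse, so the control cells lack the normal Irf8 gene too. The IRF8-labelled cells had been infected with a retrovirus for FLAG-tagged IRF8 (MSCV-IRF8), the KLF4-labelled cells with a retrovirus for FLAG-tagged KLF4 (MSCV-KLF4), and the control cells with the vector that carries puromycin resistance alone (MSCV). All were infected in the presence of polybrene at 4 µg/ml, which helps retroviruses enter cells, grown in granulocyte-macrophage colony-stimulating factor at 5 ng/ml, selected with puromycin at 2 µg/ml from 48 hr on, and harvested 4 days after infection. The groups had 2 arrays each, from 2 experiments that the design text calls independent. No primary basophil, mast cell or eosinophil was profiled here.

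Basophils, mast cells and eosinophils are the granulocytes of allergy and of the defence against worms. Mast cells and basophils bind immunoglobulin E through a receptor built from the chains that Fcer1a, Ms4a2 and Fcer1g encode, and release histamine and proteases when it is crosslinked, while eosinophils store toxic cationic proteins. All of them respond to interleukin-33 through the receptor encoded by Il1rl1, and they arise from marrow progenitors under the control of GATA and C/EBP factors. Signal is given throughout as log2 of the processed intensity minus the 75th percentile of that array, so 0 is the brightness at the 75th percentile of probes.

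Between 47.1% and 56.8% of the probes were well above background per array, and the 75th percentile of intensity lay between 362 and 784. The lowest signal that counted as well above background lay between -5.10 and -4.07 on the log2 scale, and no spot was saturated. Across the 13247 genes tested, which are not independent of each other, arrays within a group correlated at r = 0.993 to 0.995, and arrays from different groups at r = 0.889 to 0.960. The Irf8 probe read 3.21 and 3.33 on IRF8-labelled arrays, 2.46 and 2.47 on KLF4-labelled arrays and 0.75 and 0.90 on control arrays. The Klf4 probe read 4.73 and 4.89 on IRF8-labelled arrays but -1.28 and -1.01 on KLF4-labelled arrays, against -1.37 and -1.02 on control arrays. The part of the transcript that each of these probes reads was not looked up here. Whether they can see the transduced sequences is not known, and each direction stated for a group rests on its label.

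Defining genes of the 3 lineages were detected in part. Of the 10 genes, 2 (Mcpt8 and Tpsb2) were well above background on all 6 arrays and 5 on some of them. Cpa3 was above background on 1 array only, and Fcer1a and Ms4a2 on none. Among other defining genes, Gata1 and Gata2 (transcription factors of these lineages), Kit (the stem cell factor receptor of mast cells), Il5ra (the interleukin-5 receptor of eosinophils), Cma1 (a mast cell chymase) and Prg3 (a relative of the eosinophil granule protein) were above background on 0 of 6 arrays. Siglecf (a surface lectin of eosinophils), Slc18a2 (the vesicular amine transporter), Ear6 (a relative of Ear2), Cma2 (a chymase gene) and Hrh4 (a histamine receptor) were above background on all 6 arrays, Prss34 (a basophil and mast cell protease) on 4 and Ccr3 (the eotaxin receptor of eosinophils) on 3. The 10 genes are therefore called granulocyte-associated genes below, and no cell type is named from them. Because whole cultures were measured, fewer cells of a type and less RNA per cell cannot be told apart for any of these genes.

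**Figure D1:**
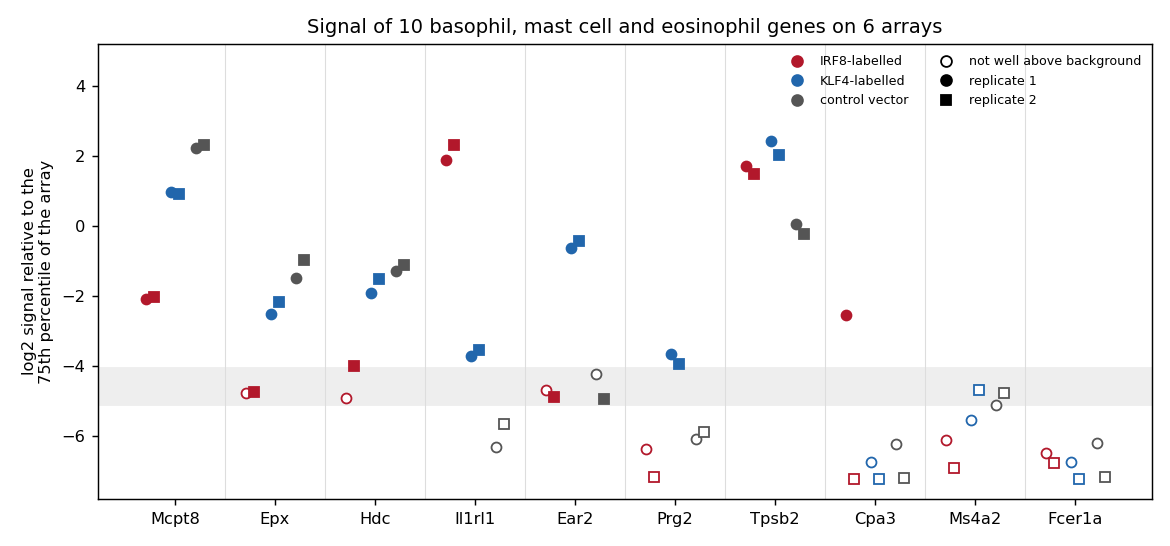
Log2 signal of each of the 10 genes, relative to the 75th percentile of the array, on 2 IRF8-labelled, 2 KLF4-labelled and 2 control arrays (circles replicate 1, squares replicate 2, open symbols not well above background). The grey band spans the lowest signals well above background, -5.10 to -4.07. Mcpt8, Epx and Hdc were lowest in IRF8-labelled cells, Il1rl1 was highest there, and Ear2 and Prg2 were highest in KLF4-labelled cells.

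Of the genes with roles in basophil or eosinophil granules, Mcpt8, Epx and Hdc fell in IRF8-labelled cells. Mcpt8 encodes a serine protease that mouse basophils store in their granules. It read -2.09 and -2.03 in IRF8-labelled cells, 0.96 and 0.92 in KLF4-labelled cells and 2.22 and 2.30 in control cells. The 3 groups did not overlap, and KLF4-labelled cells lay between the others. Mcpt8 was 20.0-fold lower in IRF8-labelled cells than in control (log2 -4.32 with an SE of 0.08 over 2 arrays a group, limma adjusted p = 9.73e-06) and 2.50-fold lower in KLF4-labelled cells than in control (log2 -1.32 ± 0.08, limma adjusted p = 7.24e-04). The direct difference between IRF8-labelled and KLF4-labelled cells was -3.00 ± 0.08 (limma adjusted p = 8.08e-05). Within experiment 1 and experiment 2 taken alone, the IRF8-labelled cells differed from control by -4.31 and -4.33.

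Hdc encodes histidine decarboxylase, the enzyme that makes histamine. It read -4.91 and -4.02 in IRF8-labelled cells, where 1 of the 2 arrays was above background, -1.93 and -1.52 in KLF4-labelled cells and -1.29 and -1.10 in control cells. IRF8-labelled arrays lay below all the others, while KLF4-labelled arrays lay just under the control arrays. Hdc fell 9.61-fold in IRF8-labelled cells relative to control (log2 -3.26 ± 0.32 (SE), limma adjusted p = 8.09e-04) and was 6.67-fold lower there than in KLF4-labelled cells (log2 -2.74 ± 0.32, limma adjusted p = 0.00229). The difference of KLF4-labelled cells from control did not pass, at -0.53 ± 0.32 with a 95% interval of -1.36 to 0.31 (limma adjusted p = 0.312).

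Tpsb2 encodes a tryptase of mast cell granules. Its bright probe, A_55_P2127243, read 1.73 and 1.49 in IRF8-labelled cells, 2.43 and 2.03 in KLF4-labelled cells and 0.06 and -0.24 in control cells. IRF8-labelled and KLF4-labelled arrays all lay above the control arrays. The rise was 3.24-fold in IRF8-labelled cells (log2 1.70 ± 0.19 (SE), limma adjusted p = 0.00123) and 4.99-fold in KLF4-labelled cells (log2 2.32 ± 0.19, limma adjusted p = 0.00176). The difference of IRF8-labelled from KLF4-labelled cells, -0.62 ± 0.19, sat at the threshold (limma adjusted p = 0.0461). It was lost in 10 of 17 alternatives, among them without IRF8 replicate 1 or 2, KLF4 replicate 1, or control replicate 1 or 2. Leaving out either control array repeats the fit of the compared groups alone, so these alternatives are not separate checks. With the mean of both probes the difference was -0.16 (limma adjusted p = 0.440). The other Tpsb2 probe, A_55_P2089143, read from -6.49 to -5.29 and was not well above background on any array, so the probes of this gene disagreed. No probe was matched to Tpsab1, a related tryptase gene, and whether the bright probe also reads it was not checked.

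Cpa3, the mast cell and basophil carboxypeptidase, was not tested. It read -2.54 and -7.24 in IRF8-labelled cells, -6.75 and -7.23 in KLF4-labelled cells and -6.23 and -7.19 in control cells. IRF8 replicate 1 alone was above background, at an intensity of 62.2 against 4.09 to 6.18 on the other 5 arrays, and the second array of that group did not share the signal.

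Epx encodes eosinophil peroxidase. It read -4.76 and -4.74 in IRF8-labelled cells, where 1 of 2 arrays was above background, -2.52 and -2.17 in KLF4-labelled cells and -1.49 and -0.98 in control cells. The 3 groups were ordered as for Mcpt8 and did not overlap. Epx fell 11.4-fold in IRF8-labelled cells relative to control (log2 -3.51 ± 0.21 (SE), limma adjusted p = 1.73e-04) and was 5.28-fold lower than in KLF4-labelled cells (log2 -2.40 ± 0.21, limma adjusted p = 9.39e-04). In KLF4-labelled cells it was 2.16-fold below control (log2 -1.11 ± 0.21, limma adjusted p = 0.0283). This last call was lost without either IRF8 array, which repeats the fit of the compared groups alone. It was also lost without KLF4 replicate 1 or 2, and without control replicate 2. Spike-in scaling (limma adjusted p = 0.0706) and normexp background correction (0.0792) lost it too.

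Ear2 encodes an eosinophil-associated ribonuclease, and it rose in KLF4-labelled cells. It read -4.69 and -4.90 in IRF8-labelled cells, -0.64 and -0.43 in KLF4-labelled cells and -4.24 and -4.96 in control cells. KLF4-labelled arrays stood far above the rest, while IRF8-labelled and control arrays overlapped, with 1 of 2 arrays above background in each. Ear2 rose 16.7-fold in KLF4-labelled cells relative to control (log2 4.06 ± 0.26 (SE), limma adjusted p = 7.20e-04), and IRF8-labelled cells were 19.2-fold lower than KLF4-labelled cells (log2 -4.26 ± 0.26, limma adjusted p = 3.71e-04). IRF8-labelled cells differed from control by -0.20, with a 95% interval of -0.86 to 0.46 (limma adjusted p = 0.541). Without control replicate 1 this difference was 0.16, and without control replicate 2 it was -0.56 with limma adjusted p = 0.0482.

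Prg2 encodes the major basic protein of eosinophil granules. It read -6.37 and -7.19 in IRF8-labelled cells, -3.66 and -3.95 in KLF4-labelled cells and -6.08 and -5.88 in control cells. It was above background on both KLF4-labelled arrays and on none of the others. Prg2 was at least 1.68-fold higher in KLF4-labelled than in control cells (limma adjusted p = 0.00959), and in IRF8-labelled cells it was at least 1.90-fold lower than in KLF4-labelled cells (limma adjusted p = 0.00130). These bounds set the dim arrays at the lowest signal well above background, and the measured means differed by 2.18 ± 0.29 and -2.97 ± 0.29 (SE, log2). The call against control was lost without KLF4 replicate 1 (0.0676) or 2 (0.0504), and both calls were lost with normexp background correction (0.510 and 0.256). No fold is given between IRF8-labelled and control cells, since both were below background.

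Il1rl1, the interleukin-33 receptor also known as ST2, moved the most of the 7 genes tested. Its brightest probe, A_55_P2027737, read 1.89 and 2.30 in IRF8-labelled cells, -3.72 and -3.56 in KLF4-labelled cells and -6.33 and -5.65 in control cells. The 3 groups were widely apart, with no control array above background. Il1rl1 was at least 101-fold higher in IRF8-labelled than in control cells (measured log2 difference 8.09 ± 0.27 (SE), limma adjusted p = 3.37e-05) and 53.2-fold higher than in KLF4-labelled cells (log2 5.73 ± 0.27, limma adjusted p = 2.15e-04). In KLF4-labelled cells it was at least 1.89-fold higher than in control (log2 2.35 ± 0.27, limma adjusted p = 0.00545). This smaller call was lost with normexp background correction (0.272) and with the mean of the 3 probes (0.148).

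The dimmer Il1rl1 probes gave lower values in the same groups. A_55_P2027731, annotated to the same accession as the bright probe, read -3.63 and -3.89 in IRF8-labelled cells and was below background on the other 4 arrays. It was at least 1.73-fold higher in IRF8-labelled than in control cells (limma adjusted p = 0.00150, over all probes tested by themselves). A_51_P339793, annotated to another transcript of the gene, read -5.42 and -4.21 in IRF8-labelled cells and was above background on the second array alone. Levels cannot be set against each other between probes, so no share of a transcript form is given.

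**Figure D2:**
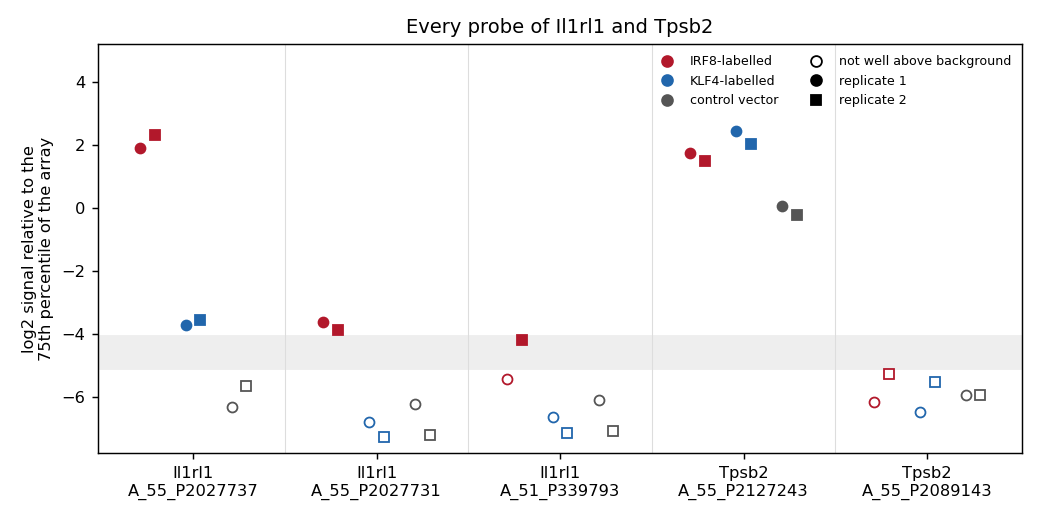
Log2 signal, relative to the 75th percentile of the array, of the 3 Il1rl1 probes and the 2 Tpsb2 probes on the 6 arrays (circles replicate 1, squares replicate 2, open symbols not well above background; the grey band is as in the plot of all 10 genes). Every Il1rl1 probe was brightest in IRF8-labelled cells, while only 1 of the Tpsb2 probes rose out of the background.

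The chains of the immunoglobulin E receptor that are particular to mast cells and basophils were not detected. Fcer1a, the chain that binds the antibody, read from -6.77 to -6.49 in IRF8-labelled, from -7.23 to -6.75 in KLF4-labelled and from -7.18 to -6.21 in control cells. Ms4a2, the beta chain, read -6.12 and -6.93 in IRF8-labelled cells, -5.53 and -4.69 in KLF4-labelled cells and -5.13 and -4.77 in control cells. No array was well above background for either gene, so neither entered the test and no fold is given. Fcer1g, the gamma chain that other Fc receptors share, was above background on all 6 arrays and rose 3.94-fold in IRF8-labelled cells (log2 1.98 ± 0.09 (SE), limma adjusted p = 8.55e-05) and 2.64-fold in KLF4-labelled cells (log2 1.40 ± 0.09, limma adjusted p = 7.81e-04).

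The comparison of IRF8-labelled with control cells asks which of these genes differ when the missing factor is put back. Of the 10 genes 7 entered the test, because the test took genes that the software placed well above background on each of the 2 arrays in some group. Il1rl1 and Tpsb2 were higher and Mcpt8, Epx and Hdc were lower, while Ear2 and Prg2 did not pass. These 2 and 3 calls stand beside a background of 26.1% of all 13247 genes called higher and 34.9% called lower, 61.1% in all. At that background 5 calls of 7 is no result about the group of genes as a whole, and the sizes of the single changes carry the information. With normexp background correction, which raises dim signals by an offset of 50, every call held but the differences shrank to 4.99 for Il1rl1, -1.78 for Epx and -1.54 for Hdc; with the mean of its 3 probes Il1rl1 differed by 4.27. Prg2, below background in both groups, passed as lower with spike-in scaling (limma adjusted p = 0.0455) and without IRF8 replicate 1 (0.00941).

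The comparison of KLF4-labelled with control cells asks which of these genes differ when KLF4 is added by the vector. Ear2, Il1rl1, Tpsb2 and Prg2 were higher, Mcpt8 and Epx were lower, and Hdc did not pass. Of all genes tested, 10.4% were called higher and 5.68% lower, 16.1% in all. Ear2 and Prg2 were above background on both arrays in KLF4-labelled cells alone. These genes therefore passed the filter only through the group where they are high. The replicate number as a block left these member calls as they were but moved the calls over all genes to 2363 higher and 3923 lower, from 1378 and 752 without it. The share of calls that were higher was 64.7%, against 88.2% with spike-in scaling (932 higher and 125 lower). With normexp background correction 2 of the 4 rises, Ear2 and Tpsb2, and 1 of the 2 falls, Mcpt8, kept their calls, and the rise of Ear2 was 2.34.

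The direct comparison of IRF8-labelled with KLF4-labelled cells placed Il1rl1 higher, and Mcpt8, Epx, Hdc, Ear2, Prg2 and Tpsb2 lower, in IRF8-labelled cells. Over all genes 22.7% were called higher and 27.6% lower, 50.3% in all. Ear2 and Prg2 passed the filter only through KLF4-labelled cells, where they are high, which limits what their lower calls can show. The Tpsb2 call sat at the threshold and did not hold under every alternative. The comparisons with control share their 2 control arrays, so their values are given side by side and no agreement between them is computed. For Mcpt8 they were -4.32 in IRF8-labelled and -1.32 in KLF4-labelled cells, for Epx -3.51 and -1.11, and for Ear2 -0.20 and 4.06, each against control.

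**Figure D3:**
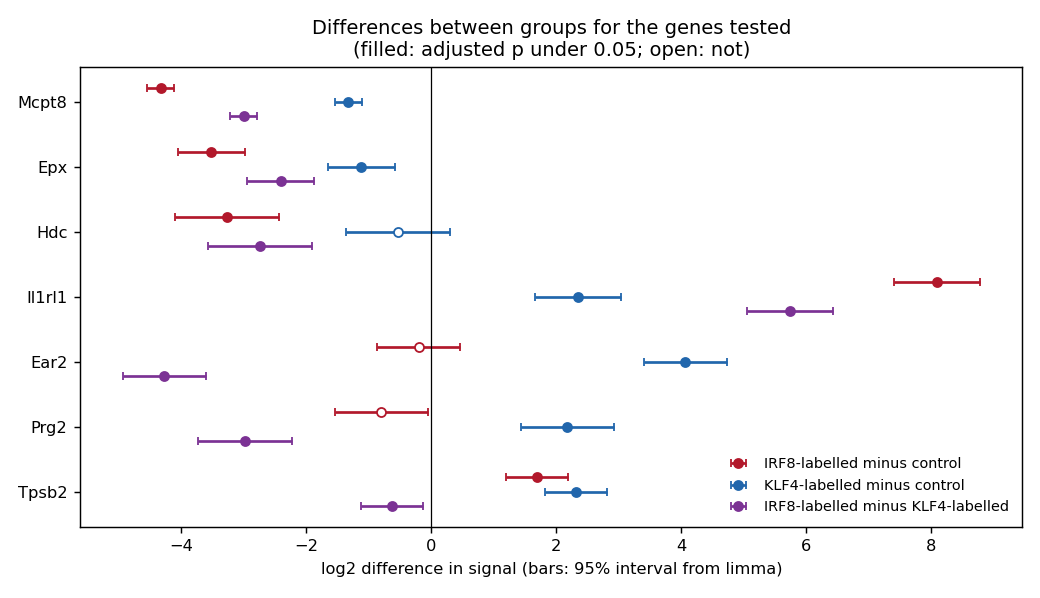
Log2 difference in signal with its 95% interval from limma, n = 2 arrays per group, for the 7 genes tested in the 3 comparisons. Filled points have an adjusted p under 0.05; Il1rl1 lies farthest to the right at 8.09 and Mcpt8 farthest to the left at -4.32, and in KLF4-labelled cells Ear2 stands at 4.06 and Prg2 at 2.18 against control.

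Other genes of granules and mediators were read from lists set by function. Of 11 other mast cell and basophil proteases 10 were matched and 3 tested. Ctsg (cathepsin G, also a neutrophil protease) fell 2.55-fold in IRF8-labelled cells (limma adjusted p = 0.0118), and none of the 3 was called in KLF4-labelled cells by limma. Of 7 tested genes of granule matrix, amine storage and eosinophil granules, 2 rose and 3 fell in IRF8-labelled cells and 1 rose and 0 fell in KLF4-labelled cells (medians -0.55 and -0.06; 2 and 0 with spike-in scaling and 1 and 1 with the replicate block in KLF4-labelled cells). Slc18a2, the vesicular transporter that loads histamine into granules, fell 3.39-fold in IRF8-labelled cells (log2 -1.76 ± 0.17 (SE), limma adjusted p = 6.69e-04). Ndst2, which sulphates the heparin of mast cell granules, rose 3.26-fold there (limma adjusted p = 2.12e-04).

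The ribonuclease relatives of Ear2 gave other values. Ear10, above background on 1 of 2 control arrays, read 15.5-fold higher in IRF8-labelled and 3.40-fold higher in KLF4-labelled cells than in control (limma adjusted p = 3.37e-05 and 0.00115), and Ear6 fell 1.77-fold in IRF8-labelled cells (limma adjusted p = 0.0263). For Ear1 neither comparison with control passed (limma adjusted p = 0.189 and 0.148), but IRF8-labelled cells were at least 3.66-fold lower than KLF4-labelled cells (limma adjusted p = 0.0195). The family is made of near-identical copies and no probe sequence was used, so a probe may read more than its own gene.

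Signalling from the immunoglobulin E receptor is shared with other Fc receptors, and several of its genes were higher. Of 13 genes tested, 8 rose and 2 fell in IRF8-labelled cells (median 0.89, against -0.11 for all genes) and 5 rose and 0 fell in KLF4-labelled cells (median 0.20, against -0.12 for all genes), while 8 of 13 did not pass in KLF4-labelled cells. The shares called over all genes were 26.1% (higher) and 34.9% (lower) with IRF8, and 10.4% (higher) and 5.68% (lower) with KLF4. Lat2, an adaptor that the kinases of this pathway phosphorylate, rose 11.7-fold and 2.29-fold, and the kinase gene Lyn rose 5.71-fold and 2.35-fold, in IRF8-labelled and KLF4-labelled cells (limma adjusted p = 2.65e-05 to 0.0237). Fyn, another kinase of the pathway, was at least 14.8-fold and at least 5.92-fold higher in the same groups (limma adjusted p = 5.18e-05 and 3.97e-04), with no control array above background.

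Genes that work with the interleukin-33 receptor were called at shares near those of all genes in IRF8-labelled cells (26.1% higher and 34.9% lower over all genes). Of 10 tested genes of interleukin-33 and interleukin-18 receptor signalling, 2 rose and 4 fell in IRF8-labelled cells (median -0.37; 3 and 6 with the replicate block) and 0 rose and 1 fell in KLF4-labelled cells (median 0.02; 1 and 4 with the replicate block). Il1rap, the co-receptor chain that pairs with ST2, fell 1.71-fold in IRF8-labelled cells (log2 -0.78 ± 0.16 (SE), limma adjusted p = 0.0105). Il18rap, the co-receptor chain of interleukin-18, fell in both, by 2.40-fold with IRF8 and 1.59-fold with KLF4 (limma adjusted p = 2.47e-04 and 0.00866). Sigirr, an inhibitory member of the receptor family, fell 2.37-fold and the kinase gene Irak1 1.69-fold in IRF8-labelled cells (limma adjusted p = 4.99e-04 and 0.00124). With spike-in scaling the counts in IRF8-labelled cells were 0 higher and 2 lower, and in KLF4-labelled cells 0 and 0. The shares over all genes with KLF4 were 10.4% higher and 5.68% lower.

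Receptors of these lineages were higher in IRF8-labelled cells in 8 of 11 tested genes and lower in 1 (median 0.90; 5 and 1 with spike-in scaling). In KLF4-labelled cells 4 rose and 0 fell (median 0.22; 2 and 0 with spike-in scaling). The shares over all genes were 26.1% (higher) and 34.9% (lower) with IRF8, and 10.4% (higher) and 5.68% (lower) with KLF4. Cd200r1, an inhibitory receptor, rose 74.7-fold and 2.65-fold in IRF8-labelled and KLF4-labelled cells (limma adjusted p = 8.22e-06 and 0.00140). Cd200r3, its activating relative on basophils and mast cells, was at least 10.1-fold higher in IRF8-labelled than in control cells (limma adjusted p = 2.59e-04). Being above background in IRF8-labelled cells alone, Cd200r3 passed the filter through the group where it is high. Csf2rb2, the interleukin-3 receptor beta chain of mice, rose 5.85-fold and 2.12-fold in IRF8-labelled and KLF4-labelled cells (limma adjusted p = 5.58e-05 and 0.00258). Siglecf was the receptor that fell, 9.56-fold in IRF8-labelled cells (log2 -3.26 ± 0.12 (SE), limma adjusted p = 4.33e-05).

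Of 14 tested lineage transcription factor genes, 6 rose and 5 fell in IRF8-labelled cells (median 0.07) and 3 rose and 3 fell in KLF4-labelled cells (median -0.15; 4 and 6 with the replicate block, 2 and 0 with spike-in scaling). Beside them stand 26.1% higher and 34.9% lower over all genes with IRF8, and 10.4% and 5.68% with KLF4. No conclusion is drawn about this list as a whole. Mitf, a mast cell transcription factor, rose 3.59-fold and 2.05-fold in IRF8-labelled and KLF4-labelled cells (limma adjusted p = 1.49e-04 and 0.00367), and Zfpm1, a cofactor of GATA1, rose 4.87-fold and 6.34-fold (5.64e-05 and 1.06e-04). Id2, an inhibitor of helix-loop-helix factors, rose 4.09-fold in IRF8-labelled cells and fell 1.48-fold in KLF4-labelled cells (limma adjusted p = 1.28e-04 and 0.0299). Cebpe, which drives the terminal differentiation of granulocytes, eosinophils among them, fell 5.52-fold in IRF8-labelled cells (log2 -2.46 ± 0.10 (SE), limma adjusted p = 6.70e-05) and 1.54-fold in KLF4-labelled cells (limma adjusted p = 0.0198).

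Secreted products were mostly higher: 6 of 7 tested genes rose and 0 fell in IRF8-labelled cells (median 1.32), and 5 rose and 0 fell in KLF4-labelled cells (median 2.45, or 1.67 with genes that had no control array above background at their bound). For these genes and the lipid mediator enzymes below, the shares over all genes were 26.1% higher and 34.9% lower with IRF8. With KLF4 they were 10.4% and 5.68%. The genes that rose in IRF8-labelled cells were Ccl3, Ccl4, Csf1, Il1rn, Tnf and Il4, and the first 5 of them rose in KLF4-labelled cells; macrophages also make the products of those 5. Ccl4 rose 36.1-fold and 19.9-fold and Il1rn, the interleukin-1 receptor antagonist, 5.69-fold and 28.9-fold in IRF8-labelled and KLF4-labelled cells (limma adjusted p = 1.03e-05 to 1.89e-04). Csf1, a macrophage growth factor, rose 5.93-fold and 10.9-fold, and the chemokine gene Ccl3 2.49-fold and 3.19-fold, in the same groups (limma adjusted p = 0.00110 to 0.00272). Of the type 2 cytokine genes, Il5 and Il13 were above background on 0 of 6 arrays. Il4 read -3.69 and -3.90 in IRF8-labelled cells, -4.31 and -5.05 in KLF4-labelled cells and -5.14 and -5.05 in control cells, and was above background on both IRF8-labelled arrays and on KLF4 replicate 1. Il4 was at least 1.69-fold higher in IRF8-labelled than in control cells (limma adjusted p = 0.00853). It passed the filter only through the group where it is high, which limits what a count of 0 falls can show. Among 7 tested lipid mediator enzymes 2 rose and 4 fell in IRF8-labelled cells (median -1.0) and 2 rose and 0 fell in KLF4-labelled cells (median -0.01; 3 and 2 with the replicate block, 1 and 0 with spike-in scaling). Hpgds, the prostaglandin D2 synthase of mast cells, was at least 8.30-fold higher in IRF8-labelled cells (limma adjusted p = 9.21e-04), and Alox5, the first enzyme of leukotriene synthesis, at least 9.08-fold higher in KLF4-labelled cells (limma adjusted p = 0.00519), while Ptgs1, a cyclooxygenase, fell 7.63-fold in IRF8-labelled cells (limma adjusted p = 2.54e-05). Hpgds and Alox5 likewise passed the filter only through the group where each is high. Alox5ap, the partner protein of Alox5, rose 3.86-fold and 1.81-fold in IRF8-labelled and KLF4-labelled cells (limma adjusted p = 3.39e-04 and 0.0219).

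**Figure D4:**
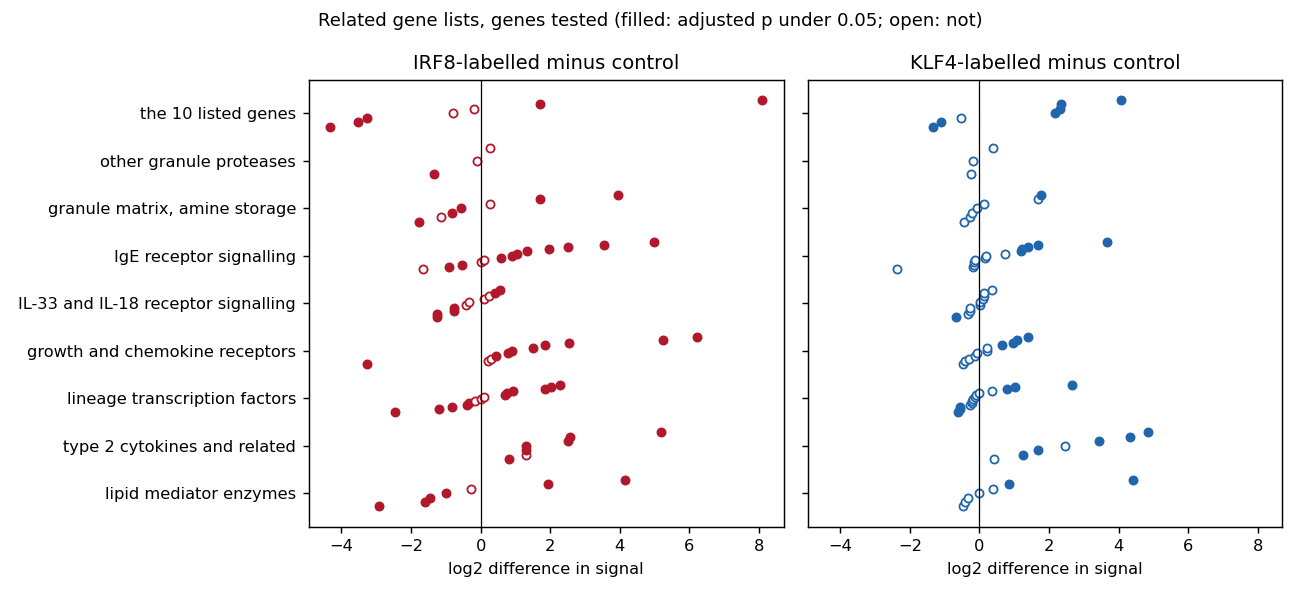
Log2 difference in signal for every tested gene of the 10 granulocyte-associated genes and of 8 related lists, IRF8-labelled minus control on the left and KLF4-labelled minus control on the right. Filled points have a limma adjusted p under 0.05. In IRF8-labelled cells 8 of 13 genes of immunoglobulin E receptor signalling lie to the right and 4 of 7 lipid mediator enzymes to the left as filled points. Over all genes 26.1% were called higher and 34.9% lower there.

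Markers of other cell types moved across the same groups. Their counts stand beside 26.1% of all genes called higher and 34.9% lower with IRF8, and 10.4% and 5.68% with KLF4. The linear signals of 11 neutrophil markers, in units of the 75th percentile of the array, summed to 534 and 423 in IRF8-labelled cells, 1422 and 991 in KLF4-labelled cells and 1912 and 1462 in control cells. Bright markers weigh most in these sums, and Mpo, the brightest, read 8.72 and 8.27 in IRF8-labelled and 9.64 and 9.05 in control cells. Of 10 tested, 9 fell and 0 rose in IRF8-labelled cells (median -3.95) and 5 fell and 1 rose in KLF4-labelled cells (median -0.69). Mmp8 was above background on no array. For 9 monocyte and macrophage markers the sums were 311 and 332 in IRF8-labelled, 82.9 and 85.0 in KLF4-labelled and 17.6 and 18.3 in control cells, and all 9 rose in IRF8-labelled cells, while 6 rose and 1 fell in KLF4-labelled cells. For 7 dendritic cell markers the sums were 98.3 and 103.6 in IRF8-labelled, 1.20 and 1.32 in KLF4-labelled and 0.328 and 0.344 in control cells; 5 of 6 tested rose in IRF8-labelled and 2 in KLF4-labelled cells, and none fell. For 6 fibroblast and packaging cell markers they were 300.3 and 238.1 in IRF8-labelled, 87.5 and 86.5 in KLF4-labelled and 48.1 and 50.3 in control cells, and Vim made up most of each sum, at a log2 signal of 8.16 and 7.80 in IRF8-labelled and 5.45 and 5.49 in control cells. Vim, Acta2 and Col1a2 rose in IRF8-labelled cells, while Col1a1, Col3a1 and Pdgfrb were above background on neither IRF8-labelled array and Col1a1 was on both control arrays. The part of these markers in the changes of Mcpt8, Epx, Hdc, Il1rl1, Ear2 and Prg2 was not tested. Type 2 innate lymphoid cells also carry ST2: of 8 markers of theirs, Il5, Il13, Klrg1 and Il17rb were above background on 0 of 6 arrays, Il2ra on IRF8 replicate 2 alone, and Gata3 and Rora on the 4 IRF8-labelled and KLF4-labelled arrays. Thy1 was above background on all 6 arrays, and differed from control by -0.75 in IRF8-labelled cells (limma adjusted p = 0.0336) and by 4.47 in KLF4-labelled cells (limma adjusted p = 3.30e-04).

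For each gene called in any comparison, the tested genes with the most similar course over the 6 arrays were found by the root mean square difference of log2 values centred on each gene. Nearest to Mcpt8 were Rapgef3 (0.09), Degs2 (0.14) and Ttc29 (0.14). Nearest to Epx were Scnn1a (0.13), Cyp11a1 (0.16) and Bcl11a (0.16), and among those close to Hdc were Thbs4 (0.20) and Siglecf (0.22). Nearest to Il1rl1 were Clec10a (0.40), Stbd1 (0.43) and Ephx1 (0.44), and Ear2 lay nearest to Lrrc34 (0.26), Wfikkn2 (0.34) and Adgre4 (0.41). Tpsb2 was nearest to Tnfrsf1b (0.09), Prr13 (0.12) and Unc5b (0.19), and Prg2 to F5 (0.24), S1pr5 (0.28) and Slc39a4 (0.35). The 6 arrays hold 3 groups, so a small difference mostly reflects 3 group means.

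The 250 bases before the transcription start are shown for Il1rl1, which has 2 listed starts, Ear2 and Epx. Il1rl1 rose in IRF8-labelled and KLF4-labelled cells, Ear2 rose in KLF4-labelled cells and Epx fell in both. In KLF4-labelled cells the calls of Il1rl1 and Epx against control did not hold under every alternative. The sequences are from RefSeq (GRCm38.p6), 5′ to 3′ on the strand of the gene. Capitals mark matches, on either strand, to GATAA, the core that GATA factors bind, or to GGGTG, a core of sites for Krüppel-like factors.
Il1rl1 start 1, chr1:40429320-40429569, plus strand: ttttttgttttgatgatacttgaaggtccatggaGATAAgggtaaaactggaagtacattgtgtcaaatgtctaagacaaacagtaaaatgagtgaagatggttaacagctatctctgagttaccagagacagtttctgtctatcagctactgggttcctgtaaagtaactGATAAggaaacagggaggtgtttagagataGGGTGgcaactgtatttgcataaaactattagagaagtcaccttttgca
Il1rl1 start 2, chr1:40439379-40439628, plus strand: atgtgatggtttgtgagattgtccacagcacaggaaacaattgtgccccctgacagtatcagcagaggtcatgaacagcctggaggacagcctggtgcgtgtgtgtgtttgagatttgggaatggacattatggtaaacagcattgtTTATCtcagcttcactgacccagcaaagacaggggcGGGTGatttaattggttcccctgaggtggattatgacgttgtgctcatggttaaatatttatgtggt
Ear2, chr14:44102404-44102653, plus strand: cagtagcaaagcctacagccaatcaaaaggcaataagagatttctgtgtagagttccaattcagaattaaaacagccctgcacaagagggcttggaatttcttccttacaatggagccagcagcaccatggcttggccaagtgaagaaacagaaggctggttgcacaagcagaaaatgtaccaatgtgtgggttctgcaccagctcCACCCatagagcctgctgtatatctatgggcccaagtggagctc
Epx, chr11:87875537-87875786, minus strand: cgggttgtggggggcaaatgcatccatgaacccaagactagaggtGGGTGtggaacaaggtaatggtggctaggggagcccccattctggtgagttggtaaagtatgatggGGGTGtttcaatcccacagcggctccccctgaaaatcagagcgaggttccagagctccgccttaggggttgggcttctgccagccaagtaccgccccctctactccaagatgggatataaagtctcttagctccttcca

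Promoters were listed for 8 of the 10 genes, in 9 entries, and not for Tpsb2 and Prg2. GATAA was found in 5 of the 9, those of Cpa3, both Il1rl1 starts, Fcer1a and Ms4a2, and in 22.6% of all 32851 promoters of this length. GGGTG was found in 5 of the 9, those of Epx, Ear2, both Il1rl1 starts and Fcer1a, and in 52.0% of all promoters. A further 3 motifs were searched on both strands as well: the interferon-stimulated response element to which IRF proteins bind, the composite element of ETS and IRF factors, and TGANTCA, the AP-1 site. They were in 0 of the 9 entries and in 2.98%, 2.30% and 6.75% of all promoters. The promoters of Mcpt8 and Hdc, which fell in IRF8-labelled cells, held none of the 5 motifs in this window. A match is a run of letters and not a site in use.

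**Figure D5:**
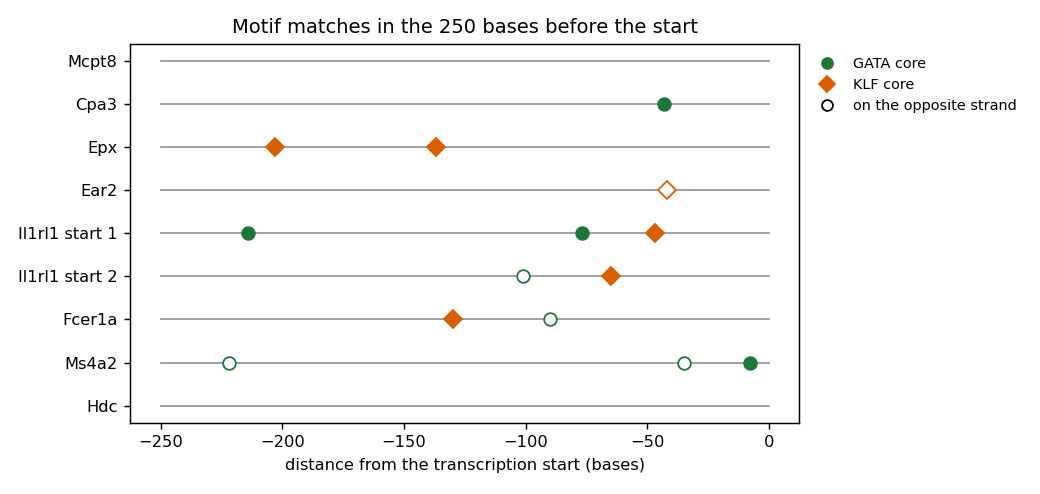
Positions of GATA cores (circles) and Krüppel-like factor cores (diamonds) in the 250 bases before the transcription start of each of the 9 promoters, by distance from the start in bases; open symbols are on the opposite strand. Ms4a2 holds 3 GATA cores, and Mcpt8 and Hdc hold no match.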

How the data were processed

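Total RNA labelled with Cy3 was hybridised to 6 Agilent mouse arrays, 1 colour, 62976 spots each. Per the file headers, the deposited intensity values came from Agilent Feature Extraction (version 10.7.3.1), which removed the local background and a spatial trend from each spot's brightness, with the design placed on mm9. The deposited value table holds intensity too, on the same scale times 1 factor per array (0.642 to 1.39), with a 75th percentile of 506 in each column and medians of 24.5 to 29.3; who set that factor is not given in the sources used here. Per the labels, the groups are the vectors.

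Control spots and spots that the software had marked as outliers were left out, repeated spots were averaged, and 75 probes lacking a value on some array were dropped. Each array's 75th percentile was subtracted from its log2 processed signals. Probes were named by matching unversioned accessions to RefSeq (GRCm38.p6): 26728 probes matched 20263 genes, and 5396 genes had several probes. Because the builds differ, coordinates are given for the printed promoters alone, from that assembly. limma 3.58.1 (R 4.3.3) fitted all 6 arrays with 3 groups (3 residual degrees of freedom), 2-sided, with Benjamini-Hochberg adjustment over 13247 genes and a threshold of 0.05; SE is on the log2 scale. An exact permutation test of 2 against 2 could not go below p = 0.333. The procedure was tested on simulated data.

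The genes, lists and tests were chosen with earlier results of these data known. Named are all 10 genes, up to 4 called genes of each list with the largest changes, and the 3 nearest profiles of each called gene, of which 1 is not reported here; Fcer1g, Il1rap, Sigirr, Irak1 and others meet this rule, while Ear1, Il4, Tnf, Cma2, Hrh4, Prss34, Ccr3, Col1a1, undetected genes and Tpsab1 are named beyond it. The replicate number, which is also the slide, pairs the samples: deviations from group means correlated at r = 0.391 (IRF8 with KLF4), 0.282 (IRF8 with control) and 0.321 (KLF4 with control).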

Additional observations from a re-analysis of the deposited data

How the results depend on the processing

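The 7 genes tested in 3 comparisons gave 21 differences, each recomputed under up to 17 alternatives: 313 of 342 values kept their direction and side of the threshold, 25 lost the call, 3 gained it and 1 turned, and 14 differences held under all of them. The one that turned was Ear2 in IRF8-labelled cells against control, which was not called (0.16 without control replicate 1, -0.56 and called without control replicate 2). Leaving out either array of the group not compared repeats the fit of the compared groups alone, so the counts of alternatives include that fit more than once. The replicate block changed no call of the 10 genes. Il1rl1 kept its call against control in IRF8-labelled cells at log2 4.27 to 8.49. The median over all genes moved from -0.03 to -0.17 with spike-in scaling between IRF8-labelled and KLF4-labelled cells.

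For IRF8-labelled against control cells, 2151 genes were higher and 2732 lower with spike-in scaling, instead of 3463 and 4627; of the 10 genes, 1 was higher and 1 lower when only genes above background on all 6 arrays were tested, since fewer genes then remain. For KLF4-labelled against control cells, the block gave 2363 and 3923 genes, spike-in scaling 125 lower, normexp 819 and 173, no filter on dim probes 843 and 122, trend and robust settings 1150 lower, and the 2 groups alone 278 lower. Of the 10 genes, 4 higher and 2 lower became 2 and 1 with normexp, 1 lower with spike-in scaling, no filter or the 2 groups alone, and 1 and 1 with all 6 arrays above background. For IRF8-labelled against KLF4-labelled cells, spike-in scaling gave 1244 and 1913 genes, and of the 10 genes 0 were higher and 2 lower with all 6 arrays above background, and 2 probes were higher with every probe by itself. Leaving out an array gave 2923 to 3317 higher and 3642 to 4323 lower genes for IRF8-labelled against control (2 to 2 and 3 to 4 of the 10), 782 to 1141 and 96 to 278 for KLF4-labelled against control (3 to 4 and 1 to 2), and 2143 to 2938 and 2425 to 3523 for IRF8-labelled against KLF4-labelled cells (1 to 1 and 5 to 6). An array left alone in its group was assumed to vary like the others. Except where stated, the cause was not tested. The normexp alternative used the median spot signal, since the files carry no mean signal.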
